A study of Mus musculus with 9 samples.

Results

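The 9 genes described here encode receptors, channels and surface enzymes that handle extracellular ATP, NAD and adenosine. They were chosen by symbol, as the rows P2rx7, P2rx4, Entpd1, Nt5e, Ada, Adora2a, Adora2b, Panx1 and Art2b among the 54146 genes of the deposited table, and each symbol occurred once. Mouse T follicular helper (Tfh) cells were sorted from Peyer's patches by CD4, CXCR5 and PD1. The groups were 5 libraries with a WT/Mut genotype for Tgfbr1, the gene of a TGF-beta receptor subunit (WT/mut, replicates 6 to 10), and 4 libraries from littermates with a WT genotype (replicates 1, 3, 4 and 5). The labels give neither the kind of mutation, strain, age, sex nor treatment, and do not say that each library is a separate animal, so p-values measure the spread between these libraries only.

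Cells release ATP through pannexin channels when they are activated or stressed. ATP outside the cell opens P2X channels, and the ectoenzymes CD39 and CD73 turn it stepwise into AMP and adenosine, which acts on adenosine receptors that raise cyclic AMP. In mice, the ADP-ribosyltransferase encoded by Art2b uses extracellular NAD to modify and open P2X7 on T cells. P2X7 is known for limiting the number of Tfh cells in Peyer's patches, and CD73 for its high level on many Tfh cells.

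Total expected counts per library lay between 29488851 and 43872732, and 15521 genes passed the filter on low counts and were tested, all 9 genes among them. The gate's own markers Cd3e, Cd4, Cxcr5 and Pdcd1 were present, and the summed level of 8 Tfh markers was 6148 to 7523 CPM (expected counts scaled to the same library size) in WT, against 6074 to 6391 CPM in WT/mut. Markers of cells outside the gate were also found. B cell markers had a positive fold change in 9 of 9 tested genes, with sums of 122 to 320.1 CPM in WT against 250.1 to 568 CPM in WT/mut. Plasma cell markers had one in 5 of 7, with sums of 238 to 287 CPM in WT against 299 to 526 CPM in WT/mut. The highest of them, Xbp1, was at 201 ± 30.0 CPM in WT against 194 ± 17.8 CPM in WT/mut. Jchain was at 22.6 ± 13.6 CPM in WT against 164 ± 86.4 CPM in WT/mut, without overlap. Tnfrsf17, which marks plasma cells, was not tested, with 30 counts over all libraries, and was at 0 in WT. Myeloid and dendritic cell markers had a positive fold change in 8 of 10, with sums of 65.9 to 192 CPM in WT against 63.0 to 332 CPM in WT/mut. Clec9a of that list was not tested, with 101 counts over all libraries. It was at 0 in WT and at 0.637 ± 1.35 CPM in WT/mut, an SD above its mean. Red cell and platelet markers stood furthest apart, with sums of 98.9 to 283 CPM in WT against 402 to 870.04 CPM in WT/mut. All 6 tested genes of that list had a positive value (median 1.48). By edgeR 0 of them passed, beside 0.122% of all tested genes. The ranges of 5, among them the haemoglobin genes Hba-a1 and Hbb-bs, did not overlap, beside 4.46% of all tested genes. The sums of the red cell and platelet list and of the plasma cell list do not overlap between the groups. Neither list can therefore be told apart from the genotype in any result below. Epithelial markers had a negative fold change in 7 of 8 genes (median -0.96), with sums of 47.7 to 472 CPM in WT against 34.2 to 268 CPM in WT/mut. Naive T cell markers had a positive fold change in 6 of 7 genes (median 0.26). Their sums were 1624 to 1883 CPM in WT against 1769 to 2068 CPM in WT/mut. Tcf7 was the highest of them, at 1441 ± 148 CPM in WT against 1549 ± 74.0 CPM in WT/mut. Since the RNA is from bulk samples, fewer cells of a type and less RNA per cell cannot be told apart. WT/mut replicate 7 stood apart in having a count for 30143 genes, against 17904 to 20264 in the others.

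For 2 of the genes the deposited count needs its sequences to be read. Art2b lies on chromosome 7 (101576970 to 101585600, minus strand, GRCm38), and a related copy, Art2a-ps, annotated as a polymorphic pseudogene, lies 16104 bases away. Art2b's coding sequence aligned to the Art2a-ps transcript with 86.9% identity, and the longest stretch without a difference was 125 bases. Of the 818 windows of 50 bases in the Art2b coding sequence, 121 (14.8%) occurred whole in Art2a-ps. A read or pair of reads that lies wholly within such a stretch cannot be placed by sequence alone. How many reads do so was not tested, and the exonic bases of Art2b outside its coding sequence were not compared. The stretch of 60 aligned bases with the most differences is shown to make clear where the copies can be told apart, from GENCODE M21 transcripts on the minus strand, with the 21 differing bases in capitals (Art2b chr7:101580338-101580397, Art2a-ps chr7:101554977-101555036).
Art2b: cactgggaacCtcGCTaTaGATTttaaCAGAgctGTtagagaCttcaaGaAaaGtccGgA
Art2a-ps: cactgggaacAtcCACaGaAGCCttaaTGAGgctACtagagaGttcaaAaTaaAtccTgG

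P2rx7 lies on chromosome 5 (122643911 to 122691432, plus strand), 16111 bases from its neighbour P2rx4. Its annotated protein-coding transcripts begin at 2 different first coding exons, 1 of them in the intron after the other. Splice forms of P2X7 that differ at this end are known in mice. The first 60 coding bases from each exon, with the start codon in capitals, are shown because the forms differ here and the count per gene pools both (chr5:122644074-122644133 and chr5:122650424-122650483, plus strand, GRCm38).
P2rx7 start 1: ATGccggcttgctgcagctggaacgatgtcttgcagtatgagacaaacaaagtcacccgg
P2rx7 start 2: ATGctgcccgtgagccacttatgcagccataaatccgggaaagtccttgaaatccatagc

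None of the 9 genes passed the test between the genotypes (edgeR quasi-likelihood test, Benjamini-Hochberg adjusted p under 0.05 over all 15521 genes). Over all tested genes 19, or 0.122%, passed. At an unadjusted p under 0.05 there were 2 of the 9, Nt5e and Art2b, beside 12.2% of all tested genes. DESeq2 and limma-voom also called 0 of the 9, beside 2.82% and 0.116% of the genes with an adjusted p. Each had 5 of the 9 at an unadjusted p under 0.05, beside 8.71% and 13.4% of the genes that DESeq2, without a filter on low counts, and limma-voom tested. Nt5e, Art2b and Adora2b had CPM ranges that did not overlap between the groups, which held for 4.46% of all tested genes. Adora2b passed the filter on low counts only through WT, its higher group, so its separation is partly set by the filter. Of the 9 log2 fold changes 3 were above 0 and 6 below, beside 49.8% below 0 among all tested genes. Their median was -0.03, beside 0.0015 over all tested genes.

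**Figure D1:**
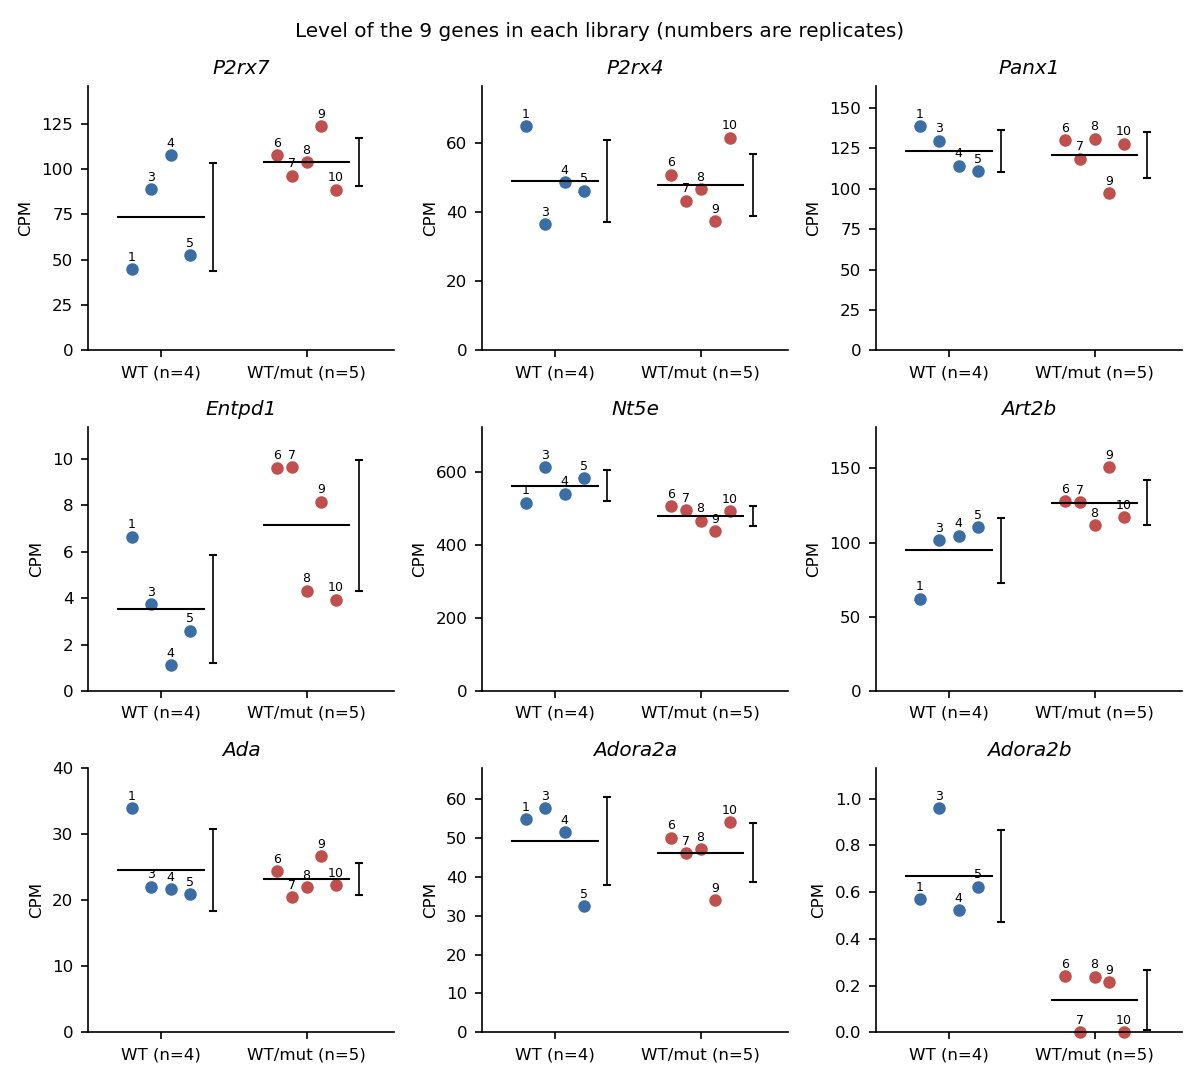
CPM of each gene in each library (points, numbered by replicate; each panel has its own axis from 0), with the group mean as a horizontal line and 1 SD on either side as the bar beside it (WT n = 4, WT/mut n = 5). Nt5e and Adora2b lie lower, and Art2b higher, in every WT/mut library than in any WT library, while the other 6 genes overlap. Adora2b passed the filter on low counts through WT alone.

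Among the ATP-gated channels, P2rx7 (ENSMUSG00000029468.17) was the more variable. It encodes the channel that needs high ATP and can lead to shedding of surface proteins and cell death in T cells. In WT it was measured at 44.8, 89.0, 108 and 52.5 CPM in replicates 1, 3, 4 and 5, and in WT/mut at 108, 96.3, 104, 124 and 88.7 CPM in replicates 6 to 10. WT replicates 1 and 5 were low, while WT replicates 3 and 4 fell within the range of the WT/mut libraries. From WT to WT/mut the mean went from 73.5 ± 29.9 CPM (SD, n = 4) to 104 ± 13.1 CPM (SD, n = 5), a log2 fold change of 0.50 ± 0.23 (SE; edgeR adjusted p = 0.419) with a 95% interval from -0.015 to 1.02. It was 0.33 without WT replicate 1 and 0.75 without WT replicate 4, and did not pass in either fit (edgeR adjusted p = 0.688 and 0.170).

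The 4 WT libraries had the same order in P2rx7 as in the summed B cell markers, which were 122 CPM in replicate 1, 185 in replicate 5, 243 in replicate 3 and 320.1 in replicate 4. WT/mut replicate 9, highest in P2rx7, was also highest in these markers, at 568 CPM. The match was not limited to B cell markers. Of the 10 marker lists, 4 had this order in WT, the B cell, naive T cell, epithelial and Tfh lists, and the first 3 of these also had their highest WT/mut sum in replicate 9. With the summed B and plasma cell markers as a covariate the log2 fold change of P2rx7 was -0.31 ± 0.26 (edgeR adjusted p = 1.00). That sum was 409 to 599 CPM in WT and 573 to 904 CPM in WT/mut, so the groups overlapped in it only through WT replicate 4 and WT/mut replicate 10.

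P2rx4 (ENSMUSG00000029470.15, chromosome 5, 122707544 to 122729738, plus strand) encodes a channel that opens at lower ATP. Its level was 64.9, 36.5, 48.8 and 46.3 CPM in WT replicates 1, 3, 4 and 5 and 50.9, 43.4, 46.7, 37.5 and 61.6 CPM in WT/mut replicates 6 to 10. The groups overlapped over nearly their whole range, and the log2 fold change was -0.03 ± 0.18 (edgeR adjusted p = 0.955; 95% interval -0.43 to 0.37, or 0.742-fold to 1.29-fold). Its sign turned with library size as the only scaling, so no direction is given. Within a library, P2rx7 stood above P2rx4 per length of exon in 8 of 9 libraries, by 1.33 to 3.88 times. WT replicate 1 was the exception, at 0.812 times, with the lowest P2rx7 and the highest P2rx4 of the 9 libraries. The other 5 P2X genes, P2rx1, P2rx2, P2rx3, P2rx5 and P2rx6, had 7 to 58 counts over all libraries together and were not tested.

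Panx1 (ENSMUSG00000031934.14, chromosome 9, 15002128 to 15045478, minus strand) encodes the pannexin channel through which ATP leaves T cells. It was at 139, 129.8, 114 and 111 CPM in WT and at 129.9, 119, 131, 97.2 and 128 CPM in WT/mut. WT/mut replicate 9 was the lowest and WT replicate 1 the highest, and the remaining 7 libraries were mixed. Its log2 fold change of -0.03 ± 0.11 (edgeR adjusted p = 0.936) had an interval from -0.28 to 0.22, and its sign too turned with library size as the only scaling.

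Entpd1 (ENSMUSG00000048120.16, chromosome 19, 40612366 to 40741602, plus strand) encodes CD39, which removes phosphates from ATP and ADP to leave AMP. It was a gene of low level, at 6.65, 3.76, 1.13 and 2.61 CPM in WT and 9.62, 9.63, 4.32, 8.15 and 3.95 CPM in WT/mut replicates 6 to 10. The WT/mut libraries fell into a high set of 3 and a low set of 2, and the low ones were below WT replicate 1. Means were 3.54 ± 2.34 CPM in WT and 7.14 ± 2.81 CPM in WT/mut, a log2 fold change of 1.01 ± 0.48 (edgeR adjusted p = 0.424; 95% interval -0.043 to 2.07). It ranged from 0.73 without WT replicate 4 to 1.51 without WT replicate 1. CD39 is known on regulatory T cells, B cells and myeloid cells as well as on activated T cells. Regulatory T cell markers had a positive fold change in 5 of 6 genes, with sums of 261 to 343 CPM in WT against 269 to 432 CPM in WT/mut. With the myeloid marker sum as a covariate the value for Entpd1 was 0.86 ± 0.50 (edgeR adjusted p = 0.530). With the B and plasma cell marker sum as a covariate it was 1.42 ± 1.14 (edgeR adjusted p = 1.00). The part of regulatory T cells was not tested.

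Nt5e (ENSMUSG00000032420.8, chromosome 9, 88327197 to 88372092, plus strand) encodes CD73, which turns AMP into adenosine. It had the highest level of the 9 genes, at 518, 614, 542 and 584 CPM in WT replicates 1, 3, 4 and 5 and 507, 498, 468, 439.8 and 493 CPM in WT/mut replicates 6 to 10. Every WT/mut library was below every WT library, and WT/mut replicate 6 came closest to WT replicate 1. The means were 564 ± 43.0 CPM (SD, n = 4) in WT and 481 ± 27.2 CPM (SD, n = 5) in WT/mut, a ratio of 0.853. On the log2 scale the fold change was -0.23 ± 0.08 (edgeR unadjusted p = 0.0201, adjusted p = 0.338; 95% interval -0.42 to -0.043). Nt5e ranked 923 of the 15521 tested genes by p. With library size as the only scaling the ranges overlapped, and the value was -0.20 ± 0.10 (edgeR adjusted p = 0.476). With the B and plasma cell marker sum as a covariate it was -0.19 ± 0.15 (edgeR adjusted p = 1.00).

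Nt5e exceeded Entpd1 in all 9 libraries. Per length of exon the ratio of Nt5e to Entpd1 was 50.5 to 309.7 in WT and 33.5 to 81.1 in WT/mut, and the ranges overlapped through WT replicate 1. Entpd1 differed 8.49-fold between its highest and lowest library, against 1.40-fold for Nt5e.

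Art2b (ENSMUSG00000030651.5) encodes the enzyme that attaches ADP-ribose from NAD to P2X7. It was measured at 62.4, 102, 105 and 110.2 CPM in WT and at 128, 127, 111 (replicate 8), 151 and 117 CPM in WT/mut. The highest WT library and the lowest WT/mut library were 110.2 and 111.5 CPM, so the ranges only just separated, and WT replicate 1 was far below the other WT libraries. Its log2 fold change was 0.42 ± 0.16 (edgeR unadjusted p = 0.0247, adjusted p = 0.349; 95% interval 0.064 to 0.78), and 0.27 ± 0.11 without WT replicate 1 (edgeR adjusted p = 0.501). With the B and plasma cell marker sum as a covariate it was 0.092 ± 0.27 (edgeR adjusted p = 1.00).

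The copy shown above had a value near 0. Art2a-ps was at 77.8, 204, 218 and 176 CPM in WT and at 167, 178, 133, 244 and 158 CPM in WT/mut, with a log2 fold change of 0.056 ± 0.27 (edgeR adjusted p = 0.948). Art2b took 32.4% to 44.5% of the CPM of both genes in WT and 38.2% to 45.6% in WT/mut. When the counts of both were summed into 1 row, an alternative chosen after the values were seen, the log2 fold change was 0.20 ± 0.22 (edgeR adjusted p = 0.733). It was -0.0081 ± 0.14 without WT replicate 1. Art2a-ps holds most of that sum, and how the shared reads were divided between the copies was not tested. The sum of both genes was 140.2 CPM in WT replicate 1 and between 244 and 394 CPM in the other 8 libraries.

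**Figure D2:**
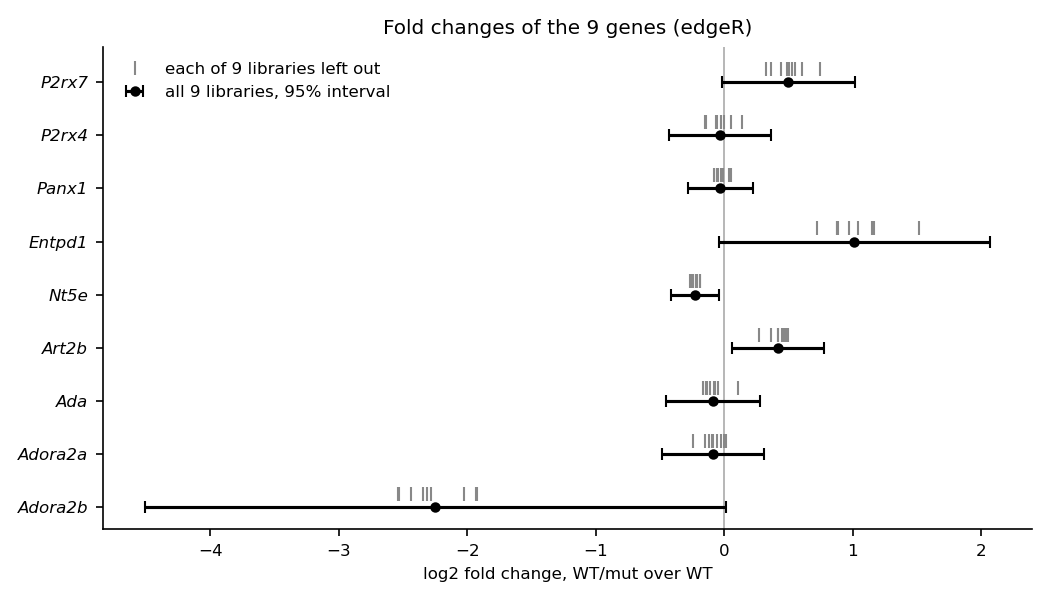
Log2 fold change of each gene, WT/mut over WT (black point, all 9 libraries; bar, 95% interval from the edgeR standard error), with the value after leaving out each library in turn as grey ticks above it. The intervals of Nt5e and Art2b lie to 1 side of 0 before adjustment over all genes, and those of the other 7 genes cross 0.

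Ada (ENSMUSG00000017697.3, chromosome 2, 163726584 to 163750239, minus strand) encodes adenosine deaminase, which turns adenosine into inosine. It was at 33.9, 22.1, 21.7 and 20.9 CPM in WT and at 24.4, 20.5, 22.0, 26.7 and 22.3 CPM in WT/mut. WT replicate 1 was apart from the 8 others, which lay between 20.5 and 26.7 CPM. The fold change was -0.089 ± 0.17 on the log2 scale (edgeR adjusted p = 0.850; 95% interval -0.45 to 0.28), and it turned to 0.11 without WT replicate 1.

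The adenosine receptors differed widely in level. Adora2a (ENSMUSG00000020178.6, chromosome 10, 75316877 to 75334784, plus strand), the main adenosine receptor gene of T cells, was at 54.8, 57.6, 51.5 and 32.5 CPM in WT and at 50.01, 46.0, 47.0, 33.9 and 54.1 CPM in WT/mut. In each group 1 library was low, WT replicate 5 and WT/mut replicate 9, and the groups overlapped. The log2 fold change was -0.087 ± 0.18 (edgeR adjusted p = 0.872; 95% interval -0.49 to 0.31).

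Adora2b (ENSMUSG00000018500.2, chromosome 11, 62248984 to 62266453, plus strand) encodes the receptor of lower adenosine affinity. It had 18, 40, 18 and 27 counts in WT replicates 1, 3, 4 and 5 and 8, 0, 9, 6 and 0 counts in WT/mut replicates 6 to 10. In CPM this was 0.57, 0.959, 0.524 and 0.623 against 0.241, 0, 0.239, 0.214 and 0. A count of 0 allows up to 0.0941 CPM in WT/mut replicate 7 and 0.0822 CPM in replicate 10, taking 3 counts as the limit. All WT/mut libraries were below all WT libraries, from 103 counts in total in 4 WT libraries to 23 in 5 WT/mut libraries. The fitted log2 fold change was -2.25 ± 1.03 (edgeR adjusted p = 0.411; 95% interval -4.51 to 0.013), and -5.55 ± 2.57 with the B and plasma cell marker sum as a covariate (edgeR adjusted p = 1.00). The limits and counts cover counting error only, and at this depth the size of the difference is poorly fixed. Of the other adenosine receptor genes, Adora1 had no count in any library, and Adora3 was at 0.344 ± 0.374 CPM in WT against 0.414 ± 0.328 CPM in WT/mut.

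By the exact two-sided permutation test of the CPM of the 9 libraries, Nt5e and Adora2b had the smallest p that this design allows, 0.00794, and Art2b had 0.0159. The remaining 6 of the 9 genes had p between 0.0794 and 0.857 by the same exact test. These are 9 single tests without adjustment. Nt5e, Adora2b and Art2b are the genes whose groups separated completely, and their p does not measure the size of the difference. Adora2b passed the filter on low counts through WT alone, and its p rests on few counts.

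Levels can be compared between genes only per length of exon. On that scale Nt5e was at 65.6 ± 5.0 CPM per kb in WT and 55.9 ± 3.2 in WT/mut, the highest mean in both groups. In WT it lay above every other gene, while in WT/mut its range of 51.1 to 58.9 met that of Art2b, 39.4 to 53.2, through replicate 9. Art2b followed, at 33.5 ± 7.7 in WT and 44.8 ± 5.3 in WT/mut, and its WT range of 22.1 to 39.0 met that of Panx1, 18.4 to 23.0. Panx1 was at 20.5 ± 2.2 and 20.1 ± 2.3, Adora2a at 16.0 ± 3.7 and 15.1 ± 2.5, and P2rx7 at 12.3 ± 5.0 and 17.4 ± 2.2. Adora2a overlapped both of the others in each group, while the ranges of Panx1 and P2rx7 overlapped in WT/mut alone. Ada, at 12.3 ± 3.1 and 11.6 ± 1.2, overlapped Adora2a in both groups and P2rx7 in WT. P2rx4, at 7.0 ± 1.7 and 6.8 ± 1.3, was below Ada in both groups and overlapped P2rx7 in WT. Entpd1 (0.634 ± 0.419 and 1.28 ± 0.503) and Adora2b (0.363 ± 0.107 and 0.0751 ± 0.0688) were lowest, and their ranges overlapped in WT but not in WT/mut.

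**Figure D3:**
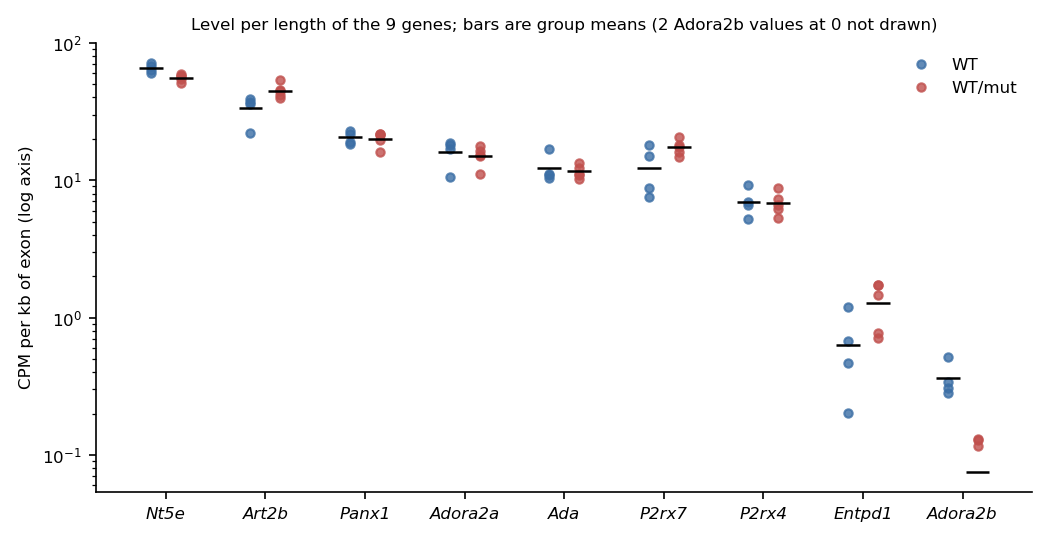
CPM per kb of exon on a log axis for each gene and library (points), ordered by the WT mean, with group means as bars (WT n = 4, WT/mut n = 5); the 2 WT/mut libraries in which Adora2b is at 0 cannot be drawn but count in the mean. Nt5e has the highest mean in both groups, although Art2b lies above it in WT/mut replicate 9, and Adora2b has the lowest, at 0.363 CPM per kb in WT and 0.0751 in WT/mut.

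WT replicate 1 took an extreme place in 5 of the 9 genes. How often this library did so over all tested genes was not examined. It was the lowest of the 9 libraries in P2rx7 and Art2b and the highest in P2rx4, Ada and Panx1. Between genes, the pattern of P2rx7 over the 9 libraries was nearest to that of Art2b among the other 8 (root mean square difference of centred log2 CPM 0.30, beside an SD of 0.47 for P2rx7 itself). Among all 15521 tested genes the 3 nearest to P2rx7 were Inppl1 (0.094), Zfp687 (0.11) and Myo9b (0.11). The 3 nearest to Nt5e, whose own SD was 0.14, were Lipa (0.050), Alkbh7 (0.051) and Emc7 (0.067). These are the smallest distances among many genes over 9 libraries and are given as a description.

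The wider pathway was read from 8 lists with 94 further genes, of which 74 were tested. By edgeR 0 of the 74 passed in either direction, 45 had a positive and 29 a negative log2 fold change, and the median was 0.083. At an unadjusted p under 0.05 there were 8 by edgeR, beside 12.2% of all tested genes, and 12 by DESeq2, beside 8.71%. The ranges of 3 did not overlap, beside 4.46% of all tested genes. DESeq2 called 3 of the 74, P2ry1, Cd38 and Pde7a, and limma-voom 0, beside the 2.82% and 0.116% given above.

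Among the surface enzymes, Cd38 had the lowest p. It encodes an enzyme that breaks down extracellular NAD, the substrate of the Art2b product. It was at 161, 114, 112 and 164 CPM in WT and at 88.7, 98.5, 76.0, 100.3 and 78.1 CPM in WT/mut, so all WT/mut libraries were below all WT libraries. The log2 fold change was -0.64 ± 0.15 (edgeR adjusted p = 0.149; DESeq2 adjusted p = 0.00512). With the B and plasma cell marker sum as a covariate it was -0.46 ± 0.29 (edgeR unadjusted p = 0.139, adjusted p = 0.9999). Enpp1, an ectoenzyme that cleaves ATP to AMP and pyrophosphate, went from 133 ± 44.3 CPM in WT to 92.5 ± 2.5 CPM in WT/mut, a log2 fold change of -0.52 ± 0.18 (edgeR adjusted p = 0.325). It was -0.31 without WT replicate 1, and -0.0094 ± 0.32 with the B and plasma cell marker sum as a covariate (edgeR adjusted p = 1.00). Of the 16 tested genes of the list, which includes Nt5e, Entpd1 and Art2b, 8 had a positive and 8 a negative value, with a median of -0.013.

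Among the P2Y receptors, which couple to G proteins, P2ry1, a receptor for ADP, had 58, 86, 105 and 108 counts in WT and 22, 2, 24, 25 and 28 in WT/mut, without overlap. Its log2 fold change was -1.96 ± 0.61 (edgeR adjusted p = 0.280; DESeq2 adjusted p = 0.0287). With the B and plasma cell marker sum as a covariate it was -2.285 ± 1.07 (edgeR unadjusted p = 0.0568, adjusted p = 0.9999). P2ry14, a receptor for UDP-sugars, was at 0.195 ± 0.226 CPM in WT against 1.94 ± 2.19 CPM in WT/mut (3.30 ± 1.29, edgeR adjusted p = 0.356). Its SD in WT/mut exceeded its mean, and the value was 2.38 without WT/mut replicate 7 and 8.02 ± 3.45 with the B and plasma cell marker sum as a covariate (edgeR adjusted p = 1.00). In this list 5 of 7 tested genes were positive.

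Of the genes that handle adenosine or release ATP, 0 passed by edgeR, and 0 had an unadjusted p under 0.05. Lowest in p were Dpp4, whose product CD26 binds adenosine deaminase (-0.16 ± 0.085, edgeR adjusted p = 0.461), and the nucleoside transporter gene Slc28a1 (-1.25 ± 0.71, adjusted p = 0.487). On the release side they were Slc17a9, the vesicular ATP transporter gene (0.40 ± 0.23, edgeR adjusted p = 0.489), and Calhm2 (0.11 ± 0.14, adjusted p = 0.748). Slc17a9 was at 0.26 without WT replicate 5, and Calhm2 at 0.0023 without WT replicate 1 and 0.22 without WT replicate 4. In the turnover and transport list 4 of 13 tested genes were positive (median -0.10), and in the release list 5 of 7 (median 0.11).

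Below the adenosine receptors, all 20 genes of cyclic AMP signalling were tested, 14 of them with a positive value (median 0.14). Pde7a, which encodes a phosphodiesterase that breaks down cyclic AMP, was at 106, 113, 98.9 and 103 CPM in WT and at 164, 136, 136, 143 and 148 CPM in WT/mut, higher in all 5. Its log2 fold change of 0.47 ± 0.09 had an edgeR adjusted p of 0.0939 and a DESeq2 adjusted p of 2.54e-05. With the B and plasma cell marker sum as a covariate it was 0.46 ± 0.17 (edgeR unadjusted p = 0.0186, adjusted p = 0.9999). In that fit 688 genes had an edgeR unadjusted p under 0.05, and 0 passed. Creb1, a transcription factor activated by cyclic AMP, was at 72.1 ± 14.8 CPM in WT against 98.7 ± 12.3 CPM in WT/mut (0.45 ± 0.15, edgeR adjusted p = 0.312). With the B and plasma cell marker sum as a covariate Creb1 was at 0.14 ± 0.26 (edgeR adjusted p = 1.00). Below P2X7, 10 of 15 tested genes were positive (median 0.081), with the lowest p for Nfatc1 (0.21 ± 0.11, edgeR adjusted p = 0.447) and Nfatc2 (0.48 ± 0.28, adjusted p = 0.491), both calcium-regulated transcription factors. Nfatc2 was at 0.28 without WT replicate 1 and at 0.73 without WT replicate 4. Of the inflammasome genes in the list, Nlrp3 had 12 counts in all and was not tested, while Pycard was at 85.2 ± 8.8 CPM in WT against 87.5 ± 3.6 CPM in WT/mut.

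**Figure D4:**
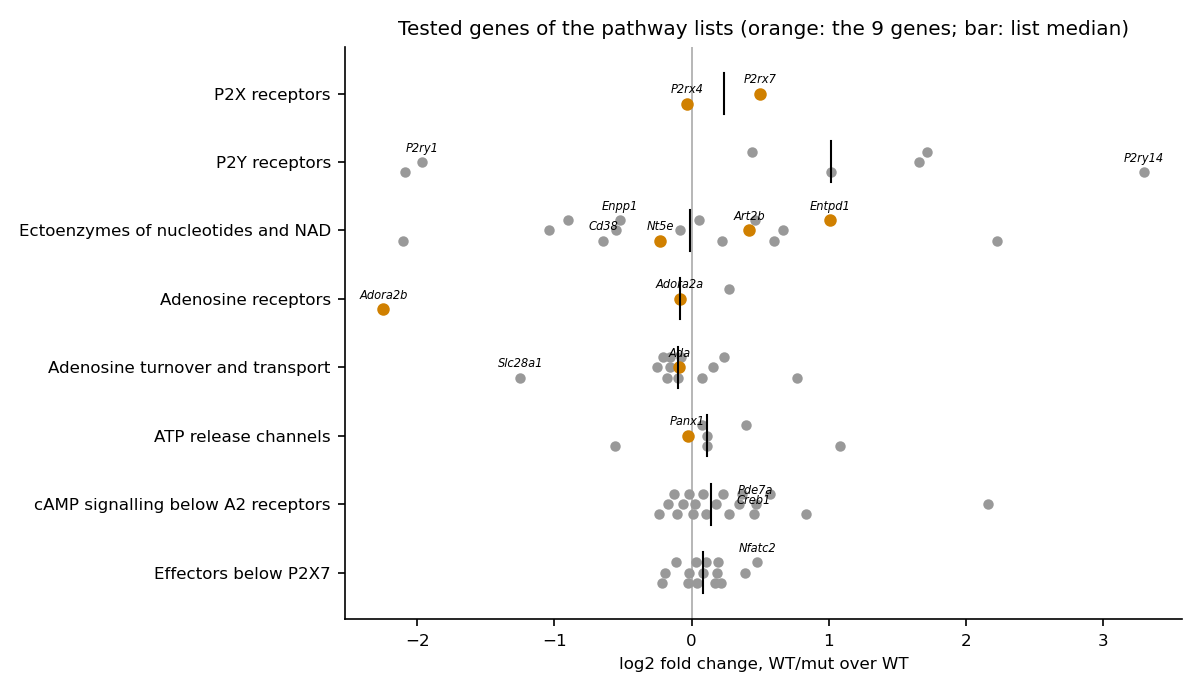
Log2 fold change, WT/mut over WT, of every tested gene in the 8 pathway lists (grey points; the 9 genes in orange; black bars, list medians; vertical offsets only separate points). The medians lie between -0.10 and 0.23 in 7 lists and at 1.01 in the P2Y list of 7 genes, most of them at low CPM.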

How the data were processed

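The authors deposited expected counts (estimated reads per gene, often not whole), made with cutadapt 2.10, STAR 2.5.3 and RSEM 1.3.0 on mm10, with DESeq2 also listed, per the submitters' processing notes, which give no roles or order. Which annotation release they used is not given in the sources. Per the labels' protocols, libraries were made from 300 pg of RNA with a kit that does not mark strand. No annotated gene in the table with more than 1 count shares exonic bases with any of the 9 genes.

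Counts were rounded and tested with edgeR 4.0.16 in R 4.3.3 (TMM, filterByExpr with minimum count 10 and minimum total 15, robust quasi-likelihood fit, 5 against 4 libraries, no covariate, Benjamini-Hochberg adjustment over 15521 genes). CPM values use TMM-scaled library sizes. SEs were derived from each fold change and its F value. Exon lengths are the union of GENCODE M21 exons. The fit was tested on simulated counts, with 50 changed genes of at least 5 CPM at each fold. It recovered 10 of 50 at 1.5-fold, 34 at 2-fold and 49 at 4-fold, with 5 false calls among 147. Changes below 1.5-fold were not simulated.

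Alternatives were DESeq2 1.42.0, limma-voom 3.58.1, other size factors, filters and covariates, a non-robust fit, and leaving out each library. The 9 genes, the lists and the tests were chosen with earlier results of these data known. The text names the 9 genes, the 2 tested further genes of lowest p per list, Art2a-ps, and the nearest 3 genes in pattern to P2rx7 and Nt5e. Other genes were named after their values were seen.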

Additional observations from a re-analysis of the deposited data

Results flagged for a closer look

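Ada in WT replicate 1, at 33.9 CPM, lay far from the other 3 WT libraries (20.9 to 22.1 CPM), with a gap of 0.912 of the group's range. It was the single value of this kind among 46 groups of 1 gene examined, of which chance gives about 1 in 20.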

How the results depend on the processing

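No paired analysis was possible because the WT and WT/mut libraries share no replicate number. The count of called genes over the whole table was 19, and moved to 495 with DESeq2, 1 with detected genes as covariate, 3 with the myeloid marker sum and 0 with the B and plasma cell marker sum (688 at an unadjusted p under 0.05 by edgeR); leaving out 1 library gave 2 to 23. The count of the 9 genes called was 0 in all 19 alternatives. The count without overlap was 2 to 4, beside 4.33% to 9.5% of all tested genes. It was 4 without WT replicate 1 and without WT replicate 4, where the share of all tested genes was 6.13% and 9.5%.

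Values that changed sign with the B and plasma cell marker sum as a covariate were P2rx7 (-0.31), P2rx4 (0.42), Adora2a (0.020), Panx1 (0.14), Adora3 (-0.31), Calhm2 (-0.15), Nfatc2 (-0.10) and Art2a-ps (-0.59). With library size alone P2rx4 was 0.010 and Panx1 0.0085. With detected genes as a covariate P2rx4 was 0.036 and Adora3 -0.31. Leaving out 1 library gave ranges that crossed 0 for P2rx4 (-0.15 to 0.14), Ada (-0.16 to 0.11), Adora2a (-0.24 to 0.016), Panx1 (-0.078 to 0.050), Adora3 (-0.27 to 0.96) and Art2a-ps (-0.18 to 0.21). Art2b summed with its copy was -0.0081 without WT replicate 1. The cause was not tested. Nt5e, Entpd1, Art2b and Adora2b kept their direction in all fits that gave a value, Art2b summed with its copy apart. Adora2b did not pass the stricter filter, and its counts of 0 to 40 per library limit its precision.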
